A study of Mus musculus with 23 samples.

Results

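Molecular chaperones and protein-folding enzymes were followed in mouse embryonic stem (ES) cells, the self-renewing pluripotent cells of the early embryo. The members are the array probe sets whose single gene symbol begins with the name of a heat-shock protein family (Hspa, Hspb, Hspd, Hspe, Hsph or Hsp90), a J-domain protein (Dnaj), a chaperonin subunit (Cct and a number), a protein disulfide isomerase (Pdia), calreticulin (Calr) or calnexin (Canx). The matrix proteoglycan Hspg2, whose symbol begins alike, was left out. This rule found 59 of the 8131 genes named on the array, measured by 81 of its 12502 probe sets. A list of where each protein resides placed 22 probe sets of 13 genes in the endoplasmic reticulum (ER), 49 of 36 genes in the cytosol or nucleus, 6 of 6 genes in mitochondria, and 4 of 4 genes nowhere in particular.

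Chaperones bind unfolded stretches of other proteins and keep them from aggregating. HSP70 proteins do so in cycles of ATP hydrolysis that J-domain proteins start, HSP90 proteins act later on clients that are nearly folded, and the CCT ring encloses actin and tubulin while they fold. The ER has a set of its own for secreted and membrane proteins, with the HSP70 protein Hspa5 (BiP), the HSP90 protein Hsp90b1, the lectins Canx and Calr for glycoproteins, and the Pdia enzymes that form disulfide bonds. Misfolded protein in the ER raises these genes through the unfolded protein response, while heat and cytosolic damage raise the cytosolic genes through heat-shock factors.

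Per the labels, 4 ES cell lines were studied, wild-type E14, E99 (+/-), E81 (-/-) and E100 (-/-). The labels do not name the gene that the genotype signs refer to. Each line was transfected with an empty vector, with SRFdM-VP16, which the labels call a control, or with SRF-VP16, and total RNA was taken after 72 hours. SRF is a transcription factor that binds the CArG box, and VP16 is a viral activation domain. The groups hold 2 arrays each except E100 with vector, which holds 1, for 23 arrays in 12 groups. Each -/- line is given by 1 name, and neither how many clones each holds nor which share of the cells took up plasmid is given in the sources used here. Nor is it said whether duplicates came from separate cultures, so each p-value reflects only how far these arrays differ, which may be technical.

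Values are linear intensities as deposited, and dim probe sets can read below 0. How background was handled is not given in the sources used here. Levels of different probe sets cannot be set against each other. Tests used limma on log2 intensity after raising values under 58 to 58, a floor that understates changes of dim genes, and a call is a Benjamini-Hochberg adjusted p under 0.05 over all 9643 probe sets tested. Of the members, 72 probe sets of 50 genes were tested. The other 9, each the only probe set of its gene, were too dim: Calr, Dnajc10, Cct2, Cct7, Cct8, Dnajb5, Dnajc9, Dnajc17 and the heat-inducible small heat-shock gene Hspb1. Their highest reading in any array was 82, for Calr.

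Array medians ran from 53.5 to 207, and from 23.5% to 43.6% of an array's values were at or below 0. The SRFdM-VP16 array of E81 replicate 1 stood apart, with the lowest median, the most values at or below 0, a log2 ratio of -0.93 between the 5′ and 3′ Gapdh control probe sets and a median correlation of 0.878 with the other arrays. The changes of Hspa5 and Dnajb6, the counts of members called and the ER count over the -/- lines are also given without it. Other values that use it, among them those of E81 alone, are not. All 9 listed ES cell markers were on the array and none lay at the floor throughout. In the -/- lines their summed intensity was 25799 to 50770 in the 4 SRF-VP16 arrays and 44565 to 84184 in the 4 SRFdM-VP16 arrays. Dppa5a (mean 1422 against 1260) and Esrrb (74.5 against 66.25) read higher with SRF-VP16 and the rest lower. The 10 primitive endoderm markers summed to 12965 to 28915 with SRF-VP16 and 3906 to 12224 with SRFdM-VP16, where the matrix genes Sparc and Col4a1 made up most of the sum, Ttr was at the floor in all 23 arrays and Sox17 and Afp above it in 4 and 2. Sparc (mean 7228 against 2056), Col4a1 (8838 against 1729), Lamb1 (829.5 against 646.75) and Gata6 (231.5 against 112) read higher with SRF-VP16. Lama1 (580 against 1115), Gata4 (384 against 613) and Dab2 (317 against 471) read lower. The 5 trophoblast markers summed to 711 to 3041 and 40 to 508. With SRF-VP16 the sum rested mostly on Krt7 (mean 1363 against -184). Eomes read 212 against 171 and Tpbpa 99 against -181. Cdx2, Hand1 and Tpbpa were above the floor in 8, 1 and 3 of 23 arrays. The 5 of 7 fibroblast markers on the array summed to 58 to 334 and 0 to 378. Readings below 0 did not lower the trophoblast and fibroblast sums. The part of these shifts in the results on chaperones in the -/- lines was not tested. In RNA from a whole culture, fewer cells of a type and less RNA per cell cannot be told apart.

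Hspa5, the ER HSP70 that holds nascent secretory proteins and keeps the stress sensors of the ER inactive, rose with SRF-VP16 in the -/- lines. In E81 it read 6516 and 9610 with SRF-VP16, 2601 and 2743 with SRFdM-VP16, and 3247 and 4667 with vector. In E100 it read 9775 and 6881 with SRF-VP16, 7251 and 3367 with SRFdM-VP16, and 4902 with vector. The 2 SRF-VP16 arrays of E81 were above every control array of that line, while in E100 the first SRFdM-VP16 array lay above the second SRF-VP16 array, so the groups overlapped over the -/- lines. The means were 8196 ± 1736 (SD, n = 4) with SRF-VP16 and 3991 ± 2199 (SD, n = 4) with SRFdM-VP16, a 2.22-fold difference on the floored log2 scale (log2 change 1.15, SE 0.26, limma adjusted p = 0.031).

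The call for Hspa5 was made in 12 of 22 alternative settings. With the vector arrays in place of SRFdM-VP16 the log2 change was 0.88 (limma adjusted p = 0.14), and with every array scaled to its median it was 0.92 (adjusted p = 0.052). Without the E81 SRFdM-VP16 array that stood apart, it was 1.13 (limma adjusted p = 0.092). It was also lost without E100 SRFdM-VP16 replicate 2 (log2 change 0.87, limma adjusted p = 0.13), without E81 SRF-VP16 replicate 2 (1.01, adjusted p = 0.13) and without E100 SRF-VP16 replicate 1 (1.02, adjusted p = 0.10). Per line, the change was 1.57 (SE 0.37) in E81 and 0.73 (SE 0.37) in E100.

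In wild type Hspa5 read lower with SRF-VP16 than in either SRFdM-VP16 array, and in E99 the plasmids overlapped. Wild-type E14 read 4374 and 2751 with SRF-VP16, 4506 and 4401 with SRFdM-VP16, and 6784 and 5203 with vector. E99 read 2969 and 3730 with SRF-VP16, 2874 and 4518 with SRFdM-VP16, and 3136 and 2485 with vector. The log2 change from SRFdM-VP16 was -0.36 (SE 0.37) in wild type and -0.11 (SE 0.37) in E99. The difference in the SRF-VP16 effect between the -/- lines and wild type was 1.51 (SE 0.46) on the log2 scale and did not pass over all probe sets (limma adjusted p = 0.54).

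Ordered by mean log2 intensity over the 12 groups, Hspa5 was highest in E100 and E81 with SRF-VP16, then in wild-type E14 with vector, and lowest in E81 with SRFdM-VP16. The SD within groups was 0.39 on the log2 scale. The step of 0.41 from E81 with SRF-VP16 down to wild type with vector slightly exceeded that SD, and no other step between neighbours did.

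**Figure D1:**
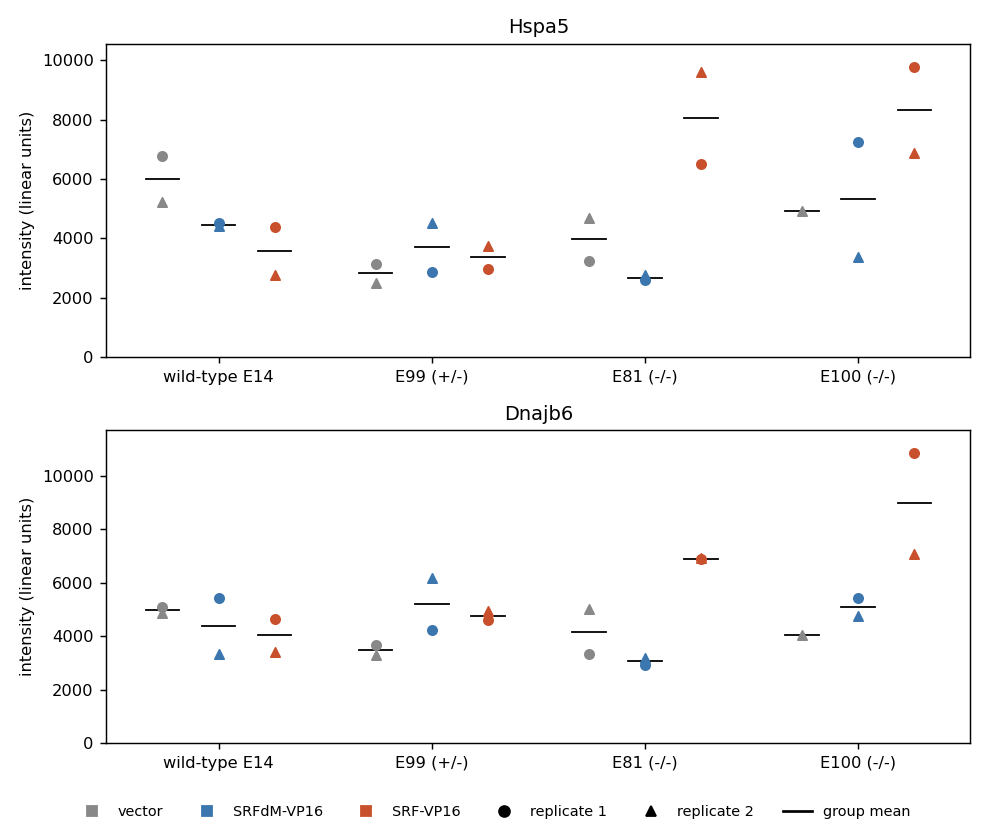
Intensity (linear units) of Hspa5 and of Dnajb6 (the brighter of its 2 probe sets) in each of the 23 arrays by line; colours give the plasmid, circles and triangles replicates 1 and 2, and bars the group means. In both -/- lines the SRF-VP16 means lie above the SRFdM-VP16 means, and the E100 SRFdM-VP16 array at 7251 is the one that makes the Hspa5 groups overlap.

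Promoters of the ER members are shown because 6 of them carry the ER stress response element (ERSE), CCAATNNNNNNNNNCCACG, through which the unfolded protein response acts on Hspa5. RefSeq promoters on GRCm38.p6, from 250 bases before to 50 bases after each gene's start, were matched for 51 of the 59 genes and searched on both strands. ERSE was present in 39 of all 32851 promoters (0.119%), in 6 of 13 promoters of ER members (46.2%) and in 0 of 41 promoters of cytosolic and nuclear members. The 250 bases before the start of Hspa5, at chr2:34771840-34772089 on the plus strand, read as follows, with the ERSE in capitals.
Hspa5: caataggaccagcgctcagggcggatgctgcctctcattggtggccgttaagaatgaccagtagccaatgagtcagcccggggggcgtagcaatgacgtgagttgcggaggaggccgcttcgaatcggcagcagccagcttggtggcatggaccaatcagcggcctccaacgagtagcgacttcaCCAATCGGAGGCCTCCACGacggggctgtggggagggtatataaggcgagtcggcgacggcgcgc

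The other 5 matches are given with 15 bases on each side, 5′ to 3′ along the gene, with the element in capitals. They lie at chr12:17266476-17266524 (plus strand) for Pdia6, chr14:118937812-118937860 (plus strand) for Dnajc3, chr11:50325785-50325833 (minus strand) for Canx, chr10:86705623-86705671 (minus strand) for Hsp90b1 and chr8:84847060-84847108 (minus strand) for Calr, where the element runs against the gene.
Pdia6: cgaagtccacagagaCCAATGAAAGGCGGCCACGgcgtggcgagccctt
Dnajc3: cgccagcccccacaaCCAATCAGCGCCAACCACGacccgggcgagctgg
Canx: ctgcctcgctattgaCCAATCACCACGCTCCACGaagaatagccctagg
Hsp90b1: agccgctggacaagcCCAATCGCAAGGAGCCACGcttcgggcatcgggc
Calr: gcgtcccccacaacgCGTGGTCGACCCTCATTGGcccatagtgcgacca
Hsp90b1 held a further match on the opposite strand. The CArG box was found in 535 of all promoters (1.63%) and in 0 of the 64 promoters of members. A match is a description of these letters and says nothing about binding in these cells.

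Of the disulfide isomerases, none passed. Pdia6 had the largest log2 change of any member in the -/- lines, 1.77 (SE 0.65, limma adjusted p = 0.23), on its brightest probe set. It read 1064 and 2324 in E81 with SRF-VP16 against 0 and 839 with SRFdM-VP16, and 2029 and 1776 in E100 against 1457 and 936. Within each line both SRF-VP16 arrays lay above both SRFdM-VP16 arrays, while across the lines the groups overlapped, and the reading of 0 came from the E81 array that stood apart. Its other 2 probe sets gave 1.60 and 0.56.

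Pdia5 changed by 1.15 (SE 0.39) on the log2 scale without passing, and its E81 SRFdM-VP16 arrays read 23 and 225. Pdia3 (ERp57), which works with Canx and Calr on glycoproteins, read 3707 and 5664 in E81 with SRF-VP16 against 984 and 3185 with SRFdM-VP16, but 4056 and 914 in E100 against 4597 and 3827. Its change over the -/- lines was 0.12 (SE 0.46). Pdia4 likewise read 752 and 1068 in E81 against 137 and 462, and 1106 and 199 in E100 against 1066 and 1094. One array in each line, E81 SRFdM-VP16 replicate 1 and E100 SRF-VP16 replicate 2, read lowest of its line for both genes.

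Canx, the membrane-bound lectin chaperone, read 917 and 1046 in E81 and 1105 and 1224 in E100 with SRF-VP16, against 693, 768, 768 and 808 with SRFdM-VP16 in E81 and E100. The lowest SRF-VP16 reading was thus over the highest one with SRFdM-VP16, with a log2 change of 0.49 (SE 0.19) that did not pass (limma adjusted p = 0.24). Its other probe sets gave 0.32 and 1.23. Calr, its soluble counterpart in the ER, could not be measured, since its probe set read between -113 and 82 in every array.

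Among the J-domain proteins of the ER, Dnajc3 (p58IPK), which restrains the stress kinase of the ER, came nearest to the threshold. On the probe set with the smallest p it read 384 and 463 in E81 with SRF-VP16 against 111 and 121 with SRFdM-VP16, and 883 and 1270 in E100 against 630 and 917. Both SRF-VP16 arrays of E81 were over its SRFdM-VP16 arrays, whereas the E100 arrays overlapped, and levels in E100 were above those of E81 under both plasmids. The log2 change was 1.17 (SE 0.31, limma adjusted p = 0.065), and the other 3 probe sets gave 1.13, 0.98 and 0.42. Dnajb9 gave 0.72 and 0.38, Dnajb11 gave 0.31 and Dnajc1 gave 0.32 and 0.14 on the log2 scale, none past the threshold. Hsp90b1, the ER HSP90 (GRP94), was measured by a probe set that lay near the floor, from -51 to 137, with a log2 change of 0.33 (SE 0.27).

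**Figure D2:**
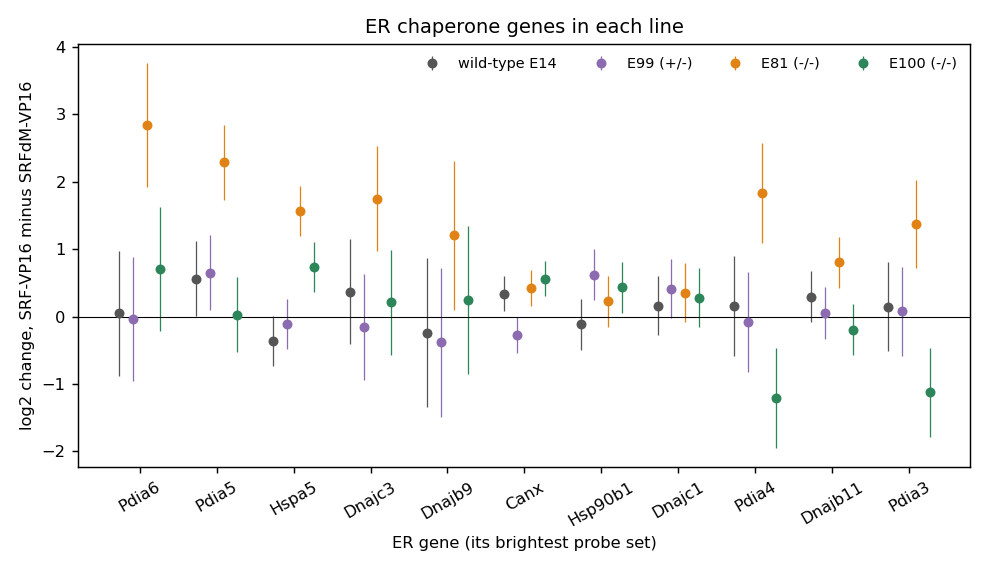
Log2 change of SRF-VP16 against SRFdM-VP16 for the 11 tested ER genes (brightest probe set of each) in each line; points are fitted changes, lines are standard errors, with 2 arrays a side. E81 has the highest point for every gene but Canx, Dnajc1 and Hsp90b1. Pdia3 and Pdia4 lie above 0 in E81 and below 0 in E100. All E81 points use the SRFdM-VP16 array that stood apart.

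Dnajb6, a J-domain protein of cytosol and nucleus that keeps aggregation-prone proteins soluble, was the other member that rose. It read 6894 and 6914 in E81 with SRF-VP16 against 2929 and 3190 with SRFdM-VP16 and 3337 and 5009 with vector. In E100 it read 10855 and 7096 against 5423 and 4750, with 4061 for the vector. All 4 SRF-VP16 arrays of the -/- lines were above all 7 control arrays of those lines. The means were 7940 ± 1946 and 4073 ± 1207 (SD, n = 4 each), 1.98-fold apart (log2 change 0.98, SE 0.20, limma adjusted p = 0.017).

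In wild type Dnajb6 read 4664 and 3421 with SRF-VP16 against 5442 and 3342 with SRFdM-VP16, and in E99 4619 and 4930 against 4221 and 6165. The log2 changes there were -0.09 and -0.10 (SE 0.29 each), and the ranges of the plasmids overlapped in both lines. The effect in the -/- lines minus that in wild type was 1.08 (SE 0.35, limma adjusted p = 0.64). The second probe set of Dnajb6 gave 0.72 (SE 0.25, limma adjusted p = 0.19) in the -/- lines, with non-overlapping arrays, and 0.33 in wild type and 0.57 in E99.

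The call for Dnajb6 was made in 15 of 22 alternative settings, among them the vector as control (log2 change 0.93, limma adjusted p = 0.042) and division by the array median (0.75, adjusted p = 0.044). It was lost without E81 SRFdM-VP16 replicate 1 (0.95, limma adjusted p = 0.058), E100 SRFdM-VP16 replicate 2 (0.94, adjusted p = 0.068), E81 SRF-VP16 replicate 2 (0.98, adjusted p = 0.055) or E100 SRF-VP16 replicate 1 (0.83, adjusted p = 0.058). By mean log2 intensity the gene was highest in E100 and E81 with SRF-VP16 and lowest in E81 with SRFdM-VP16. The step of 0.35 from E100 to E81 with SRF-VP16 and the step of 0.44 below that exceeded the SD within groups, 0.29, and among the other 10 groups no step did.

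The promoter of Dnajb6 held a heat-shock element, searched as GAANNTTCNNGAA on both strands, which was in 198 of all 32851 promoters (0.603%) and in those of 4 member genes, Dnajb6, Hsph1, Hspd1 and Hspe1. The last 2 genes start close together on opposite strands and share the site. The element of Dnajb6, at chr5:29735837-29735879 on the plus strand with 15 bases on each side, is in capitals.
Dnajb6: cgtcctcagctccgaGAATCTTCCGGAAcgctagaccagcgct

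Taken over all members, 2 of 72 probe sets (2.78%) were called in the -/- lines, both higher, beside 2.82% of all 9643 probe sets in either direction, 2.48% higher and 0.342% lower. At an unadjusted p under 0.05, 9 of 72 (12.5%) were higher and 0 lower, beside 9.42% and 4% of all. Non-overlapping arrays with SRF-VP16 higher were found for 3 of 72 (4.17%), and lower for 0, beside 4.93% and 1.13% of all. These shares were close to those of the whole array, so the members did not stand out by their number of calls.

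By compartment, and with no test of the lists, the log2 change was above 0 for 20 of 20 ER probe sets (median 0.53), for 23 of 43 of cytosol and nucleus (median 0.03), for 2 of 6 mitochondrial ones (median -0.09), and for 5172 of all 9643 (53.6%, median 0.04). Probe sets of 1 gene share their target. With the brightest probe set of each gene, the counts were 11 of 11 ER genes (median 0.49) and 15 of 30 cytosolic and nuclear genes (median -0.02).

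Without the E81 SRFdM-VP16 array that stood apart, 17 of 20 ER probe sets were above 0 (median 0.37). With vector as the control the ER count was 17 of 20 (median 0.26), that of cytosol and nucleus 14 of 43 (median -0.22), and the median of all probe sets -0.14. Dividing each array by its median gave 19 of 20 ER (median 0.46) and 16 of 43 cytosolic and nuclear probe sets (median -0.17), with -0.05 for all. With all arrays, intensities as deposited and SRFdM-VP16 as the control, only Hspa5 passed among the ER members. It did not pass in the other settings of this paragraph.

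**Figure D3:**
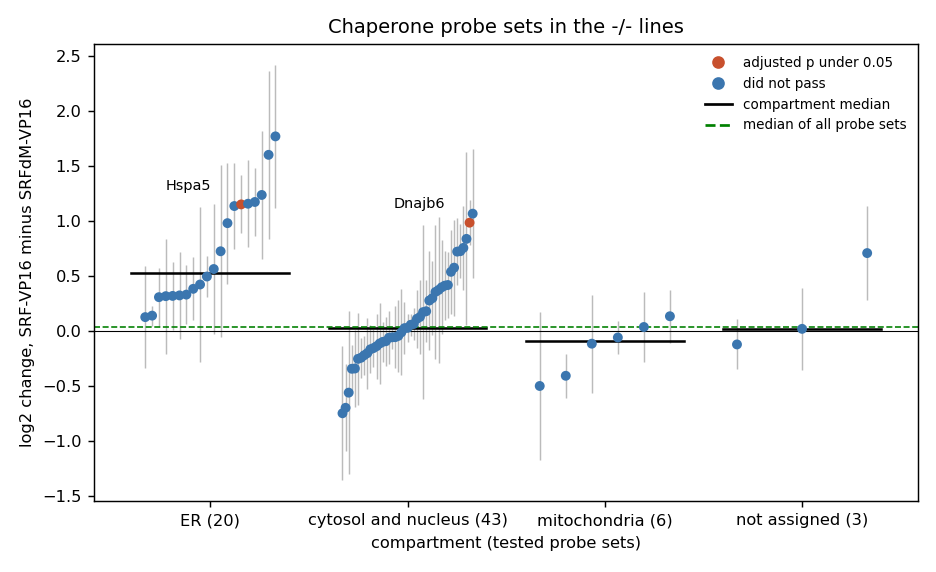
Log2 change between the SRF-VP16 and SRFdM-VP16 arrays of the -/- lines for the 72 tested member probe sets, sorted within each compartment; vertical lines are standard errors, horizontal bars compartment medians, and the dashed line is the median of all probe sets (0.04). All 20 ER points lie above 0, while cytosolic and nuclear points lie on both sides; Hspa5 and Dnajb6 are the 2 that passed.

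The medians of both compartments were also set side by side within single arrays. Against the SRFdM-VP16 mean of the same line, the median of the ER probe sets minus that of cytosol and nucleus was 0.60 and 1.51 in the E81 SRF-VP16 arrays and 0.27 and 0.62 in those of E100, on average 0.75 ± 0.53 (SD, n = 4). The E81 SRFdM-VP16 arrays themselves lay 0.45 below and 0.45 above their mean, and the E81 vector arrays stood at 0.13 and 0.78. The first SRF-VP16 array of E81 therefore lay within the range of that line's control arrays and the second above it. Both E100 values exceeded the E100 control arrays, which lay between -0.10 and 0.10. The 2 SRFdM-VP16 arrays of a line lie equally far from 0 because the score is taken against their own mean. An error in that mean shifts the line's other arrays together, and E100 has only 1 vector array, so these ranges decide nothing. The SRF-VP16 arrays gave 0.34 and -0.04 in wild type and 0.26 and 0.28 in E99, and no p is given for this score over members.

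**Figure D4:**
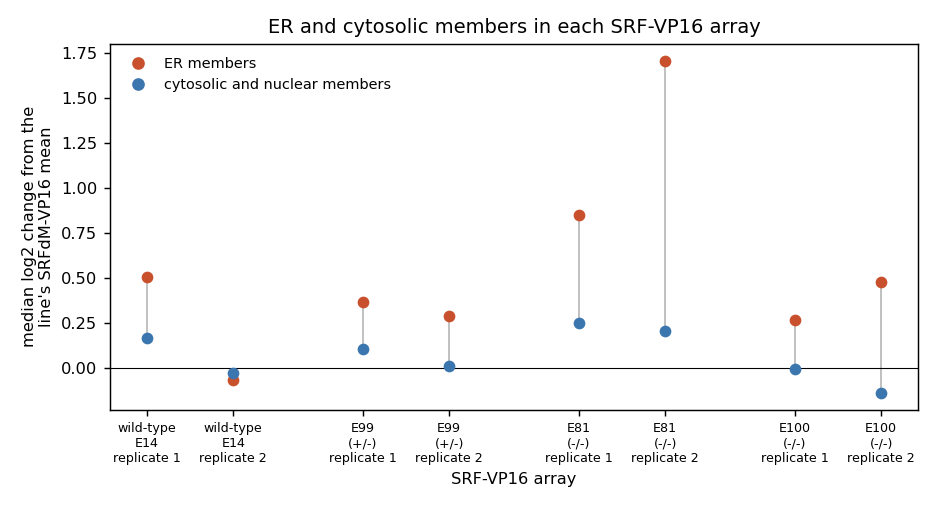
Median log2 change of the 20 ER (red) and 43 cytosolic and nuclear (blue) probe sets in each of the 8 SRF-VP16 arrays, against the SRFdM-VP16 mean of the same line; grey lines join the 2 medians of an array. The ER median lies above the other in 7 of 8 arrays, and the gap is widest, at 1.51, in E81 replicate 2.

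By line, the ER count above 0 was 20 of 20 in E81 (median 1.17) beside a median of 0.25 for all probe sets, and 16 of 20 in E100 (median 0.40) beside -0.14. It was 15 of 20 in wild type (median 0.16) beside 0.04, and 13 of 20 in E99 (median 0.29) beside 0.11. The lines used different control arrays, so these are separate measurements. With vector as the control the counts were 15 of 20 in E81, 13 of 20 in E100, 8 of 20 in wild type and 15 of 20 in E99.

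The cytosolic HSP70 and HSP90 proteins did not pass. Hspa8 (HSC70), the constitutive HSP70, ran from 17686 to 24051 over all 23 arrays with a log2 change of 0.05 (SE 0.10) in the -/- lines. Hsp90aa1, an HSP90 of the cytosol, ran from 18757 to 31865 and changed by 0.06 (SE 0.15). Their limma adjusted p-values were 0.90 and 0.94.

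The heat-inducible Hspa1a (HSP70) was dim. It read 112 and 373 in E81 and 176 and 99 in E100 with SRF-VP16, against -119, -58, 127 and 89 with SRFdM-VP16, and the groups overlapped. The log2 change of 1.06 (SE 0.59, limma adjusted p = 0.49) depends on the floor. Dnajb1 (HSP40), the J-domain partner of Hspa1a, changed by 0.40 (SE 0.43), and Hsph1 (HSP105), the nucleotide exchange factor of HSP70, by -0.34 (SE 0.35), with means of 3910 ± 1783 and 4751 ± 1617 (SD, n = 4 each). None of these heat-inducible genes passed, and Hspb1 was too dim to test.

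The CCT chaperonin was followed by Cct3, Cct4, Cct5, Cct6a and Cct6b, since Cct2, Cct7 and Cct8 were too dim. Cct4 was the brightest, at 15187 and 19781 in E81 and 13614 and 13860 in E100 with SRF-VP16, against 15019, 19631, 16184 and 18359 with SRFdM-VP16. The values overlapped, with a log2 change of -0.16 (SE 0.18). The brightest probe sets of Cct3 and Cct5 gave -0.10 and -0.24, and Tcp1, the remaining CCT subunit, whose symbol falls outside the rule, gave 0.30 (limma adjusted p = 0.69). Cct6a had the lowest change of the genes shown by their brightest probe set, -0.70 (SE 0.39), but its readings of -372 to 176 lay mostly under the floor.

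None of the other J-domain or small heat-shock probe sets passed in the -/- lines. Dnajc8, a nuclear J-domain protein and the brightest of its family, changed by -0.22 (SE 0.18), and Hspb2, the brightest small heat-shock gene, by 0.30 (SE 0.34). For 17 of the 50 genes tested the brightest probe set read above 1000 in every array. Among these the 12 group means spanned from 0.31 to 1.62 on the log2 scale, with the widest span for Hspa5.

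The mitochondrial chaperonin parted duplicates and not plasmids. Hspd1 (HSP60) forms the folding chamber of the matrix and Hspe1 (HSP10) is its lid. In each of the 11 groups with duplicates, one Hspd1 reading was at least 19806 and the other at most 16120, and the lone E100 vector array read 20646. The higher one was replicate 1 in 8 groups and replicate 2 in wild type with SRF-VP16 and in E99 with vector and with SRFdM-VP16. Over the -/- lines the means were 17887 ± 4178 with SRF-VP16 and 17717 ± 5407 with SRFdM-VP16 (SD, n = 4 each), a log2 change of 0.03 (SE 0.32).

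A few other members differed in the same direction in every group. In all 11 groups Hsph1 and the brighter probe set of Dnajc2, a J-domain protein at the ribosome, were higher in the array with more Hspd1, by 0.67 ± 0.35 and 0.64 ± 0.27 (SD over 11 groups, log2). In all 11 groups Hspa9 (mortalin), the HSP70 of the mitochondrial matrix, Cct4 and the brighter probe set of Dnajb9 were lower there, by -0.37 ± 0.18, -0.27 ± 0.22 and -1.45 ± 0.86. Hspe1 was lower in 10 of 11. Leaving out Hspd1, which defined the split, 2 of the other 71 member probe sets (2.82%) were higher in every group and 3 (4.23%) lower, beside 2.5% and 3.06% of the 9642 probe sets tested other than Hspd1, so that the shares were near those of the whole array.

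These genes were picked after their values were seen. The first principal component of the deviations from group means held 32.5% of their variance and had the same sign as Hspd1 in 11 of 11 groups. The labels name no batch. In E81 and E100 the array with more Hspd1 was replicate 1 in every group with duplicates. A block by replicate number therefore follows the split in these lines, and fits with it are given among the alternatives. In wild type and E99 it does not, and the part of this split in the results there was not tested. Since the split was made within groups, each of the 11 groups holds an array on either side of it by construction. This decides nothing about Hspa5 or Dnajb6.

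**Figure D5:**
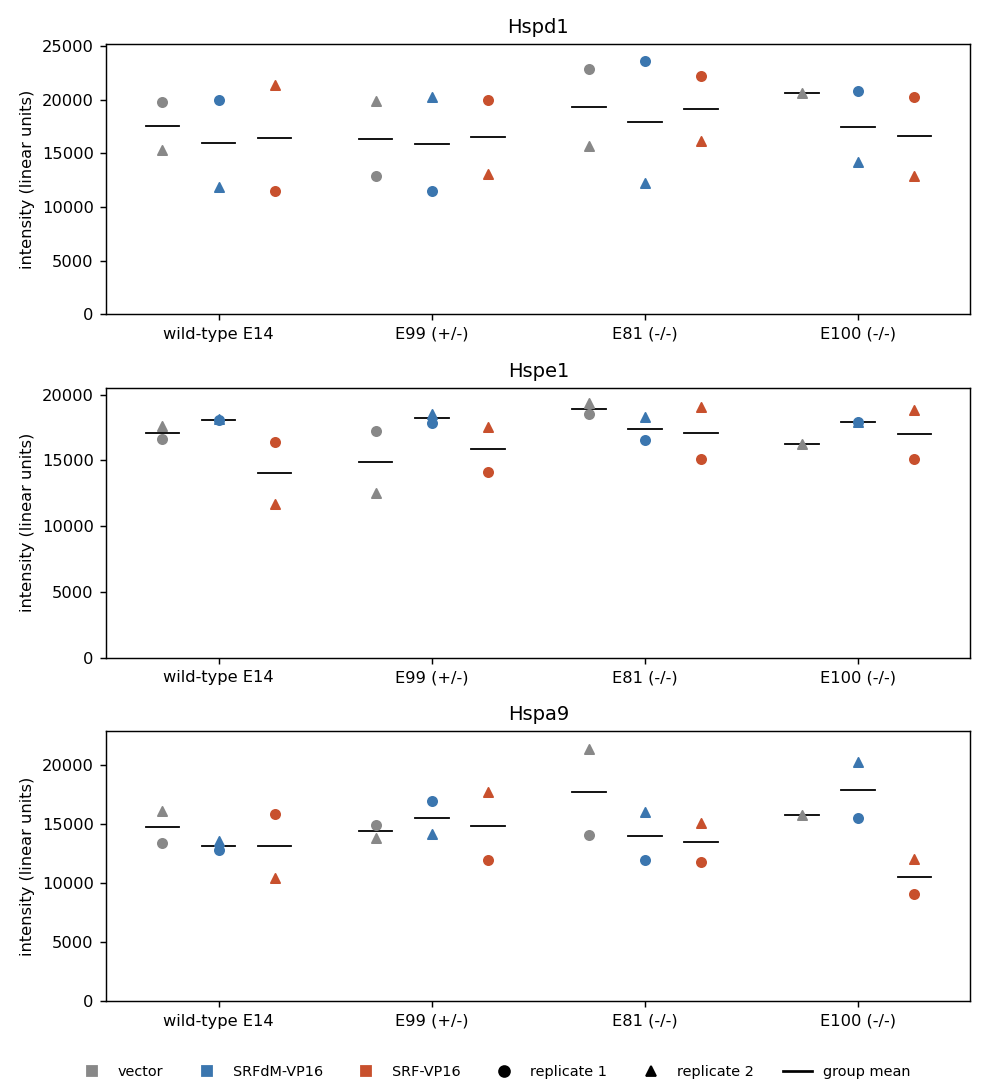
Intensity (linear units) of Hspd1, Hspe1 and Hspa9 in each of the 23 arrays by line; colours give the plasmid, circles and triangles replicates 1 and 2, and bars the group means. Every duplicate pair of Hspd1 has one array at 19806 or above and one at 16120 or below, under all 3 plasmids.

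Hspa9 changed by -0.41 (SE 0.20, limma adjusted p = 0.42) in the -/- lines, from 15907 ± 3383 with SRFdM-VP16 to 11971 ± 2465 with SRF-VP16 (SD, n = 4 each). It read 11803 and 15052 in E81 and 9020 and 12008 in E100 with SRF-VP16, against 11949, 16011, 15463 and 20204. It passed as lower after division by the array median. Hspe1 changed by -0.06 (SE 0.15), Dnaja3, a mitochondrial J-domain protein, by 0.13 (SE 0.24), and Dnajc11 was dim.

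In wild type limma called 0 of 72 member probe sets between SRF-VP16 and SRFdM-VP16, beside 0.0207% of all. Before adjustment, at p under 0.05, 0 were higher and 0 lower in limma, beside 2.2% and 1.39% of all. The largest changes were those of Hspa1l, a testis-enriched HSP70 (340 and 215 against 135 and 38), and of Dnajc11 (-246 and -97 against 201 and 155). In E99 limma called 0 of 72, beside 0.0415% of all. With p under 0.05 before adjustment, 1 was higher and 0 lower in limma, beside 3.93% and 0.55% of all. It was Dnajb3, on its _r_at probe set, with 154 and 126 against 44 and 44. Dnajc4 lay lowest there, at -315 and 131 against 161 and 209. All of these readings were dim, and with 2 arrays a side these comparisons had few calls over the whole array.

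Over all 4 lines, 8 arrays against 8, limma called 0 of 72 members, beside 1.96% of all probe sets. At an unadjusted p under 0.05, 11 were higher and 0 lower, beside 10.6% and 2.82% of all. Hspa5 changed by 0.46 (SE 0.19, limma adjusted p = 0.30) and the 2 probe sets of Dnajb6 by 0.59 and 0.44 (adjusted p = 0.13 and 0.16). Among the brightest probe sets of each gene, Hspa1a had the largest change, 0.94 (SE 0.42), and Dnajc15, a J-domain protein of the mitochondrial inner membrane, the lowest, -0.42 (SE 0.31). This comparison shares its arrays with those by line.

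Between the control plasmid and the vector limma called 0 of 72 members, beside 0.799% of all. Before adjustment, at p under 0.05, 10 members were lower and 0 higher, beside 13.3% and 0.612% of all. The median change was -0.21 for members and -0.20 for all probe sets, so members lay lower along with the whole array. Changes above 0 were found for 1 of 20 ER probe sets (median -0.28) and 9 of 43 of cytosol and nucleus (median -0.21), beside 1968 of all 9643. The ER probe sets thus read low, as did the array as a whole (median -0.20), in the SRFdM-VP16 arrays that serve as the control elsewhere. Dnajc5, the cysteine string protein of secretory vesicles, came nearest to a call, with means of 58 ± 58.8 (SD, n = 8) and 203 ± 94.1 (SD, n = 7) and a log2 change of -1.28 (SE 0.33, limma adjusted p = 0.09). Dnajc15 had the largest change upward, 0.47 (SE 0.33).

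With the control plasmids alone, limma called 0 of 72 members between the -/- lines and wild type, beside 0.083% of all. With p under 0.05 before adjustment, 2 were higher and 2 lower in limma, beside 4.63% and 1.69% of all. Dnajc15 read 517 ± 209 (SD, n = 7) in the -/- lines and 904 ± 351 (SD, n = 4) in wild type, a log2 change of -0.87 (SE 0.40, limma adjusted p = 0.78), the lowest of the members. Among the brightest probe sets of each gene, Cct6a had the largest change upward, 0.61 (SE 0.36), on readings near the floor. Hspa5 gave -0.37 (SE 0.24) and Dnajb6 -0.20 (SE 0.18).

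For the SRF-VP16 effect in the -/- lines minus that in wild type, limma called 0 of 72 members, beside 0.083% of all. At an unadjusted p under 0.05, 2 were higher (Hspa5 and Dnajb6) and 0 lower in limma, beside 3.14% and 2.18% of all, while Pdia6 had the largest difference, 1.72 (SE 1.13), and Hspa1l the lowest, -2.17 (SE 1.28). For the effect in E81 minus that in E100, limma called 0 of 72, beside 0.145% of all. Before adjustment, at p under 0.05, 9 were higher and 1 lower, beside 9.44% and 1.35% of all. The extremes were Pdia4, at 3.04 (SE 1.05), and Hspa2, a dim testis-enriched HSP70, at -1.44 (SE 0.61). The median of all probe sets was 0.52 in this comparison, of the members 0.65, and the low arrays named beside Pdia3 and Pdia4 enter it.

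Genes of the unfolded protein response and of ER quality control outside the members were taken from a list of 48, of which 30 were tested. In the -/- lines 1 of 30 rose and 0 fell, beside 2.48% and 0.342% of all probe sets, with a median log2 change of 0.39 beside 0.04. At an unadjusted limma p under 0.05, 6 were higher and 2 lower there, beside 9.42% and 4% of all. The change was above 0 for 22 of 30 in the -/- lines. It was above 0 for 23 of 30 in wild type (median 0.21 beside 0.04) and for 23 of 30 in E99 (median 0.29 beside 0.11). The gene that rose was Ero1a, the oxidase that recharges Pdia enzymes, from 1350 ± 284 to 2937 ± 1070 (SD, n = 4 each; log2 change 1.07, SE 0.25, limma adjusted p = 0.038). P4hb, the founding disulfide isomerase, gave -0.49 (adjusted p = 0.64). Over all lines 0 of 30 passed.

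Cytosolic folding partners and heat-shock factors came from a list of 39, of which 27 were tested. In the -/- lines 1 of 27 rose and 0 fell, beside 2.48% and 0.342% of all probe sets, with a median log2 change of 0.05 beside 0.04. It was Bag3, an HSP70 co-chaperone in the clearance of damaged proteins, which read 621 ± 83.1 with SRFdM-VP16 and 1587 ± 359 with SRF-VP16 (SD, n = 4 each). The arrays spanned 518 to 718 and 1149 to 1974 and did not overlap (log2 change 1.33, SE 0.27, limma adjusted p = 0.015). Bag3 also rose over all lines, by 0.96 (SE 0.19, limma adjusted p = 0.018), the only one of the 27 to do so, beside 1.96% of all probe sets called in either direction. Its other probe set gave 0.52 in the -/- lines and 0.41 over all lines, without passing.

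Over the 12 group means of log2 intensity, the named genes most like Hspa5 by Pearson's r were Ugcg (0.946), Itgb1bp1 (0.945), Atp6v1e1 (0.937), Vmp1 (0.932) and Actn1 (0.927), none of them a member. The most alike member was Dnajb6, with r = 0.869 and rank 44 of 6786 genes, followed by Dnajc3 (0.771), Pdia6 (0.763) and Dnajb11 (0.747). The 12 means share control groups and array scale, and no p is attached to these values.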

How the data were processed

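Total RNA of 23 arrays in 12 groups of line and plasmid was compared, with groups and replicate numbers from the sample titles; the titles E14-99+/- and E99-/+ were taken as 1 line. Each array has 1 deposited linear intensity for a probe set, and for the authors' software, background correction and scaling no source used here gives an account. Over 247 probe sets with a median above 10000, the ratio of each array to the median array was 0.923 to 1.05, so intensities were used as deposited. Of all values 29.1% were at or below 0 and 40.0% below the floor of 58, the 40th percentile of all values, used because the 20th was -43.

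Probe sets above the 40th percentile of their array in at least 2 arrays were kept (9643), and 66 control probe sets were left out. The fit used limma 3.58.1 in R 4.3.3, fitting a mean for each of the 12 groups to all 23 arrays at once, with variances moderated along an intensity trend, 11 residual degrees of freedom, two-sided tests and Benjamini-Hochberg adjustment at 5%. It was tested on simulated data. Precision is limited by how many arrays there are, and where a group has 1 array its spread is taken from the other groups. Gene names are those of the platform annotation, all 81 members matched the RefSeq gene table, and 15 genes have several probe sets, of which the brightest is shown. Names ending in _f_at, _g_at, _i_at, _r_at or _s_at mark probe sets that may read related transcripts or hold fewer unique probes.

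The members and gene lists were chosen with earlier results of these data known. Named genes were the members called in any comparison, Hspa5, Calr and Canx, the brightest of each family, the heat-inducible genes, the largest change in each direction per comparison, called genes of the 2 other lists with Tcp1, and the 5 most like Hspa5; further members were named after their values were seen. Xbp1 and Ddit3 were also planned as named genes, but their values are not reported here. Alternatives covered scaling, floor, filter, variance model, control plasmid, line and each array left out. Replicate numbers did not pair the arrays in every line: of 10 pairs of groups within a line, 6 had correlations of same-numbered deviations over 0.1, among them the 4 in the -/- lines (0.25 to 0.31), and the range was -0.35 to 0.42. Fits with the number as a block are therefore given as alternatives, one of them, with the block in the -/- lines alone, chosen after seeing the data.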

Additional observations from a re-analysis of the deposited data

Results flagged for a closer look

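Of 46 groups of 4 arrays, 2 were picked out by Dixon's 95% critical value as holding a single reading far from the rest. Groups with no reading above the floor, such as Cct6a with SRF-VP16, could not be picked out but are counted in the 46. The critical value assumes 4 readings of 1 kind, while each group mixes E81 and E100. How many groups chance would pick out is therefore not known. For Hspa5 with SRFdM-VP16 in the -/- lines, E100 replicate 1 read 7251 and the other 3 arrays read 2601 to 3367, a gap of 0.835 of the range. Without this array the log2 change of Hspa5 was 1.43 (limma adjusted p = 0.011). For Dnajb6 with SRF-VP16 in the -/- lines, E100 replicate 1 read 10855 and the other 3 arrays 6894 to 7096, a gap of 0.949 of the range. Without it the log2 change of Dnajb6 was 0.83 (limma adjusted p = 0.058).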

How the results depend on the processing

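The count of 2 members called in the -/- lines became 4 with the floor at the 60th percentile (Canx, Dnajb6, Dnajc3, Hspa5), 1 with no filter (Dnajb6), 1 with vector as the control (Dnajb6), and 0 with only the arrays of the comparison, E81 alone or E100 alone. Leaving out 1 array gave 0 to 6. It was 0 without E100 SRFdM-VP16 replicate 2 or E100 SRF-VP16 replicate 1, 1 without E81 SRFdM-VP16 replicate 1 (Dnajc3) or E81 SRF-VP16 replicate 2 (Dnajc1), and 6 without E81 SRFdM-VP16 replicate 2. Division by the array median kept 2, Dnajb6 higher and Hspa9 lower. Over all lines the count of 0 became 1 with only the arrays of the comparison (Hspa2, limma adjusted p = 0.041), and 0 to 3 with 1 array left out: 3 without E81 SRFdM-VP16 replicate 2, and 1 without E81 SRFdM-VP16 replicate 1 or E100 SRF-VP16 replicate 2. For the control plasmid against vector it was 0 to 2, with 2 without E81 SRFdM-VP16 replicate 2 and 1 without E99 vector replicate 1 or wild-type SRFdM-VP16 replicate 2. For E81 minus E100 it was 0 to 2, with 2 without E81 SRFdM-VP16 replicate 2. The other 4 comparisons gave 0 throughout, and leaving out the lone E100 vector array could not be fitted. The difference between ER and cytosolic medians of 0.75 ran from 0.46 to 0.94 with 1 array left out and was 0.36 with the higher floor. The cause of these changes was not tested.

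With the replicate block the -/- count stayed at 2 (limma adjusted p = 0.014 for Hspa5 and 0.016 for Dnajb6), and the block changed no other count of members. With the block in the -/- lines alone, where all 4 pairs correlated above 0.1, the count was 3 (Dnajb6, Dnajc3, Hspa5), with limma adjusted p = 0.0092 for Hspa5 and 0.014 for Dnajb6. Over the whole array, the 272 calls of the -/- comparison (239 higher, 33 lower) became 112 with only its arrays, 97 with E81 alone, 114 with E100 alone and 514 without E81 SRFdM-VP16 replicate 2. The split was 238 higher and 111 lower after quantile normalization, 228 and 143 after division by the array median, and 150 and 136 with vector as the control. Against vector, the 77 calls of the control plasmid became 1 after quantile normalization and 4 after division by the median.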
